A study of Mus musculus with 12 samples.

Results

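This report covers 10 genes of the bone morphogenetic protein (BMP) pathway in mouse embryonic stem cells, chosen by symbol from the 25897 symbols of a read count table. They are the ligands Bmp2 and Bmp4, the co-receptor Rgma, the inhibitors of DNA binding Id1, Id2, Id3 and Id4, and the pathway inhibitors Smad6, Smad7 and Bambi. All 10 of 10 had enough reads to be tested, as did 14185 symbols of the whole table. RNA came from E14tg2a cells of the 129SV background with a cRAF-ERT2 construct, a kinase fused to a hormone-binding domain that 4-hydroxytamoxifen (4OHT) switches on, and with it ERK signalling. The 12 libraries form 4 groups, each with 1 library of clone a, b and c: untreated, and 4OHT at 250 nM for 1 h, 2 h or 4 h. Untreated and treated cells shared their culture conditions. They grew in serum with LIF and 2 µM Chir99021, an inhibitor of GSK3, and their medium was exchanged 24 h before treatment for serum with LIF and the FGF receptor inhibitor PD173074 at 250 nM. All received 5 mM ethynyl uridine in the last 15 min, and ribosomal RNA was removed from total RNA. The labels give no vehicle group, and the treatment protocol names only 0 h and 2 h, while titles and design give all 4 times. Each library is one clone, and nothing states whether a clone's 4 libraries came from separate cultures, so p-values measure the spread between these samples, which may be technical in part.

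BMP ligands bind paired receptors whose kinases phosphorylate SMAD1, SMAD5 and SMAD9, and these enter the nucleus with SMAD4. The ID genes are their best known targets. ID proteins hold E proteins in pairs that cannot bind DNA, and in mouse embryonic stem cells BMP4, through the ID genes, works beside LIF to sustain self-renewal. SMAD6 and SMAD7 are inhibitory SMADs that BMP signalling itself induces, BAMBI is a decoy receptor without a kinase, and RGMA is a membrane-bound co-receptor of BMP ligands.

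Total counts were 24213641 to 31435301 per library. Levels are given in CPM, the count scaled to library size by the trimmed mean of M values, and changes as log2 change ± SE from edgeR's quasi-likelihood test, with p adjusted over the 14185 genes by the Benjamini-Hochberg method and called under 0.05. The median log2 change of all genes was −0.02 at each treated time against untreated cells. The ERK target Dusp6, a phosphatase that acts on ERK, averaged 331.5 CPM at 4 h, against 52.9 CPM in untreated cells. The 6 embryonic stem cell markers together had 3645 to 3757 CPM per library at 4 h, against 3563 to 3980 CPM in untreated cells. Within this sum Nanog averaged 282 CPM at 4 h, against 699 CPM in untreated cells, Tdgf1 521 against 675 CPM and Pou5f1 1110 against 735 CPM (edgeR adjusted p = 0.00013, 0.0106 and 0.0019), and the other 3 did not pass the test. The same sums at 4 h and in untreated cells were 15.6 to 49.3 against 2.93 to 3.54 CPM for 5 trophoblast markers, 66.4 to 112 against 35.3 to 42.3 CPM for 5 neural markers, 13.02 to 28.9 against 5.41 to 8.72 CPM for 6 feeder fibroblast markers and 2.21 to 6.28 against 3.70 to 6.57 CPM for 5 primitive endoderm markers. The trophoblast rise was in Cdx2 and Eomes. Among the neural markers, Nes averaged 73.96 CPM at 4 h, against 29.4 CPM in untreated cells, and Pax6 14.04 against 5.01 CPM. Sox1 was lower, at 1.002 against 3.63 CPM, and Tubb3 and Neurod1 were at 0 counts throughout. Among the feeder markers, Thy1 averaged 17.02 CPM at 4 h, against 3.42 CPM in untreated cells, and Col1a1 0.82 against 0.33 CPM. Pdgfra averaged lower, at 1.77 against 2.77 CPM, with overlap of the groups. Col1a2, Col3a1 and Postn had at most 9 counts over a group of 3 libraries. What part these cell type markers have in the results below was not tested, and in bulk RNA a change in the share of cells and a change of RNA per cell cannot be told apart. For Esr1, which encodes the oestrogen receptor, clones a, b and c had 18.2, 259.9 and 39.1 CPM at 4 h, against 9.44, 93.4 and 38.8 CPM before 4OHT.

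The ID genes did not move together, and both ligand genes were higher by 4 h. Of the ligands, Bmp2 had few reads, and its 4 h call did not hold when some single libraries were left out. At 4 h, Id1, Id3, Bmp4 and Bmp2 rose and Id2 and Rgma fell, while Id4, Smad6, Smad7 and Bambi did not pass the test. That is 4 of 10 higher and 2 of 10 lower at 4 h, where 18% and 15.1% of all genes tested were called higher and lower (33.1% in either direction). The 10 genes were chosen with earlier results of these data known, so such shares are descriptions and do not test the set. At 2 h the called genes were Id1, Id3, Bmp4 and Smad7, higher, and Id2 and Rgma, lower, against 9.56% and 6.64% of all genes (16.2% in either direction). At 1 h Id3 alone was called, against 0.0775% of all genes. The libraries of the 2 groups did not overlap for 6 of 10 genes at 1 h, 8 of 10 at 2 h and 9 of 10 at 4 h, against 19.9%, 37.4% and 44.8% of all genes tested. Clone as a block removes lasting differences between clones. With it the calls were 6 at 1 h, where 6.99% of all genes were called (DESeq2 called 4, against 0.916%). The block called 9 at 2 h and 9 at 4 h, against 40.6% and 52% of all genes. Those at 4 h included Id4 and Smad6, lower, and Smad7, higher (edgeR adjusted p with the block = 0.00083, 0.0215 and 0.0015).

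**Figure D1:**
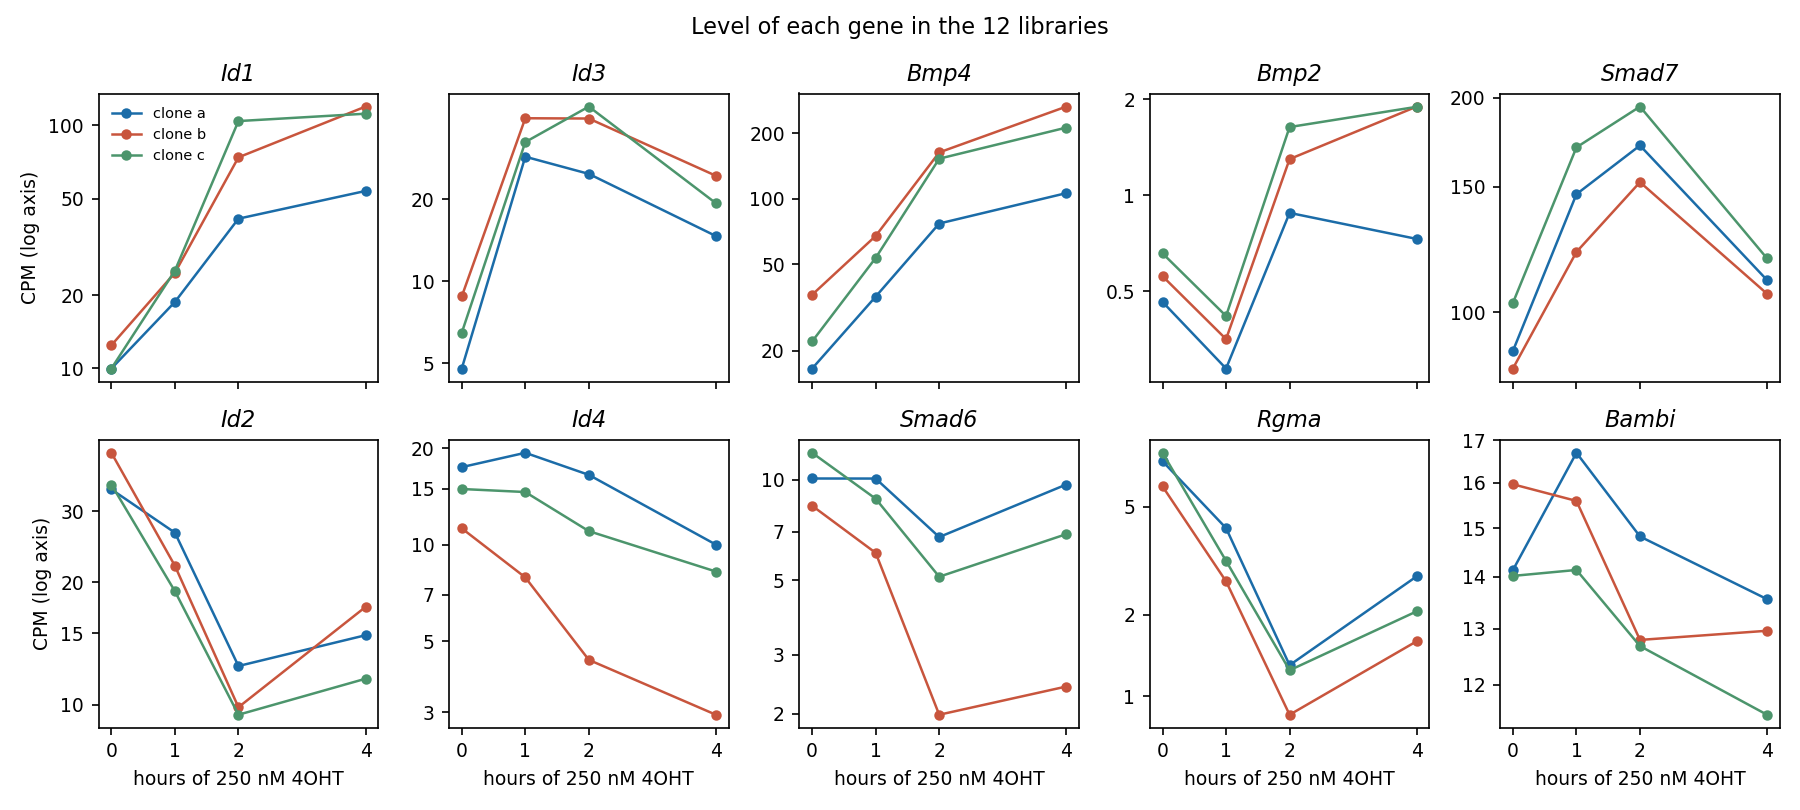
Level of each of the 10 genes in CPM (log axis, own scale per panel) against hours of 250 nM 4OHT, with 1 point per library and 1 line per clone. Id1 and Bmp4 are higher at 4 h than untreated in every clone, Id3 and Smad7 are higher at 2 h than at 4 h, and Id2 and Rgma are lowest at 2 h.

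In the mouse genome (GRCm38, GENCODE M21), 8 of the genes lie at chr2:152736251-152737410 for Id1, chr12:25093799-25097140 for Id2, chr4:136143497-136145755 for Id3, chr13:48261228-48266026 for Id4, chr2:133552159-133562885 for Bmp2, chr14:46383520-46390669 for Bmp4, chr9:63953076-64022059 for Smad6 and chr7:73375509-73419899 for Rgma. All 10 are protein-coding, with Id2, Bmp4 and Smad6 on the minus strand.

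Because the ID genes and Bmp4 moved in different directions, the 250 bases before their starts were searched for short motifs of SMAD, ETS, EGR, AP-1, serum response, cAMP response and CCAAT-binding factors on both strands. RefSeq's promoter table (GRCm38.p6) held 5 of the 10 genes, Id2, Id3, Id4, Bmp4 and Smad6, and not Id1, Bmp2, Rgma, Smad7 and Bambi. The Bmp4 and Id4 windows and a stretch of 30 bases from the Id3 and Id2 windows, which lie in annotated exons of these genes, are shown 5′ to 3′ on the gene's strand, with motif matches in capitals.
Bmp4, chr14:46390670-46390919, minus strand: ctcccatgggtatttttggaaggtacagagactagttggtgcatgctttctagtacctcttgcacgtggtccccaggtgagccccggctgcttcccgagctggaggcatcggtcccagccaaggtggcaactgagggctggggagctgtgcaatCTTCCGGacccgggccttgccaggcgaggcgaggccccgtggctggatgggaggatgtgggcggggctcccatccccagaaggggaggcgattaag
Id4, chr13:48260866-48261115, plus strand: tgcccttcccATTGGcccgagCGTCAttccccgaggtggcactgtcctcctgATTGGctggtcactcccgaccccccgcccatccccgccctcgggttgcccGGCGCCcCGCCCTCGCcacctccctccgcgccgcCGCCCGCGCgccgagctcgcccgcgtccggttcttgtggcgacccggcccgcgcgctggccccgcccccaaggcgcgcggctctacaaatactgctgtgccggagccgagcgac
Id3, chr4:136143639-136143668, plus strand: ccgctgtcctcggCGTCAGACcagcctaag
Id2, chr12:25096306-25096335, minus strand: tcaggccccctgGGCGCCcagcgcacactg
In Bmp4 the match was the ETS core CCGGAAG, read on the other strand, 96 to 90 bases before the start, and 6.91% of 32851 promoters of the same length hold it. Of the 2 SMAD elements searched, the GC-rich GGCGCC (9.59% of promoters) was in Id2 and Id4, and GTCTG (42.2%) was in Id3, where 1 of its matches overlaps one to the cAMP response element core TGACG (17.8%). The Id4 window also held TGACG, 2 matches to the EGR motif GCGNGGGCG (4.7%) and 2 CCAAT boxes (33.8%), and the Id2 window held 3 CCAAT boxes. The Smad6 window matched none of the motifs, and no window matched the AP-1 motif TGANTCA (6.75%) or the serum response element (1.47%). A match is a run of letters, and binding was not measured. Whether a match bears on the change of its gene was not tested.

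Of the ligands, Bmp4 had 16.6, 36.2 and 22.1 CPM untreated (clones a, b, c), 35.5, 67.5 and 53.5 CPM at 1 h, 77.0, 163 and 153 CPM at 2 h, and 106, 265 and 212 CPM at 4 h. Each clone was higher at every later time, clone a was the lowest of the 3 at each time, and the untreated and 1 h groups overlapped through untreated clone b and clone a at 1 h. Its log2 change was 1.07 ± 0.40 at 1 h (edgeR adjusted p = 0.348, 0.00085 with clone as a block), 2.40 ± 0.41 at 2 h (adjusted p = 0.0083) and 2.97 ± 0.42 at 4 h (adjusted p = 0.00062). Bmp4 stood 7.79-fold higher at 4 h than in untreated cells. Its exons share 89 bases with those of Gm15217 on the opposite strand. Gm15217 itself had 165 counts over the 3 libraries at 4 h, against 52 in untreated cells, and the strand setting of the counting is not given in the sources used here. Some Bmp4 transcripts also share 50-base stretches with 540 other genes, and how reads with several matches were counted is not given in the sources used here.

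Bmp2, the second ligand, was per length the least abundant of the 10 genes in untreated cells. It had 15, 14 and 19 counts untreated (clones a, b, c), 7, 10 and 11 counts at 1 h, 23, 38 and 46 at 2 h, and 19, 56 and 48 at 4 h. In CPM that was 0.46, 0.56 and 0.66 untreated, 0.29, 0.35 and 0.42 at 1 h, 0.88, 1.30 and 1.64 at 2 h, and 0.73, 1.90 and 1.90 at 4 h. All 3 clones were below untreated at 1 h and above it at 2 h and 4 h, with no overlap of the groups. The log2 change was −0.65 ± 0.44 at 1 h (edgeR adjusted p = 0.626), 1.19 ± 0.37 at 2 h (adjusted p = 0.0511, 0.0037 with clone as a block) and 1.43 ± 0.37 at 4 h (adjusted p = 0.0129). The 4 h call was lost without untreated clone a (1.31, adjusted p = 0.0515), without clone b at 4 h (1.22, adjusted p = 0.0541) or without clone c at 4 h (1.24, adjusted p = 0.0531).

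The co-receptor gene Rgma went the other way. It had 7.34, 5.93 and 7.89 CPM untreated (clones a, b, c), 4.16, 2.65 and 3.15 CPM at 1 h, 1.30, 0.86 and 1.25 CPM at 2 h, and 2.77, 1.60 and 2.06 CPM at 4 h. Every clone was lowest at 2 h, and no treated group overlapped the untreated one. The log2 change was −1.09 ± 0.24 at 1 h (edgeR adjusted p = 0.214, 0.0025 with clone as a block), −2.64 ± 0.26 at 2 h (adjusted p = 0.0011) and −1.72 ± 0.25 at 4 h (adjusted p = 0.00065). At 2 h this was a level 6.22-fold lower than in untreated cells. From 2 h to 4 h all 3 clones were higher again, by 0.91 ± 0.27 (edgeR adjusted p = 0.0776, 0.0050 with clone as a block). Rgma shares 258 exon bases with A730056A06Rik on the opposite strand, which has no row in the table.

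Id1 had the largest log2 change of the ID genes at 2 h and 4 h, while Id3 had it at 1 h. At 2 h Id3 was close behind Id1, and in clone a it changed more (2.36 against 2.04), while clones b and c kept the order. Id1 had 9.99, 12.5 and 9.999 CPM untreated (clones a, b, c), 18.8, 24.7 and 25.3 CPM at 1 h, 41.3, 73.9 and 104 CPM at 2 h, and 53.7, 119 and 112 CPM at 4 h. Every treated library was above every untreated one, and clone a was lowest at each treated time. The log2 change was 1.09 ± 0.34 at 1 h (edgeR adjusted p = 0.29, 0.0179 with clone as a block), 2.76 ± 0.35 at 2 h (adjusted p = 0.0026) and 3.14 ± 0.36 at 4 h (adjusted p = 0.00023), where it was 8.78-fold higher than in untreated cells.

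Id3, its close relative, was called already at 1 h. It had 4.78, 8.80 and 6.47 CPM untreated (clones a, b, c), 28.7, 39.7 and 32.5 CPM at 1 h, 24.8, 39.6 and 43.9 CPM at 2 h, and 14.7, 24.4 and 19.4 CPM at 4 h. No treated library overlapped an untreated one, and at 4 h each clone was below its own level at 1 h and 2 h. The log2 change was 2.34 ± 0.28 at 1 h (edgeR adjusted p = 0.011), 2.44 ± 0.28 at 2 h (adjusted p = 0.0015) and 1.55 ± 0.27 at 4 h (adjusted p = 0.0019). The 1 h call was lost without untreated clone a (2.14, adjusted p = 0.106), untreated clone c (2.32, adjusted p = 0.107), clone b at 1 h (2.19, adjusted p = 0.0571) or clone c at 1 h (2.36, adjusted p = 0.0587). From 2 h to 4 h the change of Id3 was −0.89 ± 0.26 (edgeR adjusted p = 0.0766, 0.00088 with clone as a block).

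Id2 fell. It had 33.9, 41.8 and 34.9 CPM untreated (clones a, b, c), 26.5, 22.0 and 19.0 CPM at 1 h, 12.4, 9.85 and 9.44 CPM at 2 h, and 14.8, 17.4 and 11.6 CPM at 4 h. All treated libraries were below all untreated ones, and each clone was lowest at 2 h. The log2 change was −0.71 ± 0.17 at 1 h (edgeR adjusted p = 0.274, 0.0113 with clone as a block), −1.80 ± 0.18 at 2 h (adjusted p = 0.0011) and −1.33 ± 0.18 at 4 h (adjusted p = 0.00041). Id2 shares 50-base stretches with the processed pseudogene Gm6175, which has no row in the table.

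Id4, the fourth ID gene, passed the test at no time without the clone block. It had 17.5, 11.3 and 14.9 CPM untreated (clones a, b, c), 19.4, 7.92 and 14.6 CPM at 1 h, 16.5, 4.38 and 11.0 CPM at 2 h, and 10.02, 2.95 and 8.26 CPM at 4 h. Clone b was the lowest at each time, and the groups overlapped at 1 h and 2 h. At 4 h the log2 change was −1.05 ± 0.51 (edgeR adjusted p = 0.133, 0.00083 with clone as a block), made up of −0.80, −1.91 and −0.85 in clones a, b and c. Exons of Id4 overlap Gm49291 and A330033J07Rik on the opposite strand, which have no row in the table.

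The makeup of the ID family shifted with these changes, and was compared per length, as RPKM, the CPM divided by the merged exon length in kilobases. In untreated cells Id2 was 47.3% ± 0.62 of the summed ID level, Id1 29.1% ± 0.88, Id4 12.1% ± 3.59 and Id3 11.5% ± 2.41 (SD, n = 3 clones). At 1 h Id1 and Id3 were 38.3% ± 4.37 and 36.4% ± 3.81, and Id2 was 18.1% ± 3.97. At 4 h Id1 was 80.2% ± 6.005, Id3 11.1% ± 1.75, Id2 6.51% ± 2.81 and Id4 2.21% ± 1.77. The summed level averaged 32.0 ± 3.27 RPKM in untreated cells and 51.4 ± 3.23, 90.3 ± 31.1 and 100.6 ± 32.8 RPKM at 1, 2 and 4 h. The share of Id1 at 4 h was 73.3%, 82.7% and 84.5% per clone (a, b, c), and above every untreated share, which were 28.3% to 30.1%. Id2 was the largest share in all 3 untreated libraries and Id1 in all 6 libraries at 2 h and 4 h, also with the longest transcript as the length. At 1 h that choice changed the order: Id1 was the largest share in 2 libraries and Id3 in 1 with merged exons, while with the longest transcript Id3 was the largest in all 3, at 42.8% ± 4.12 against 32.2% ± 3.80 for Id1.

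**Figure D2:**
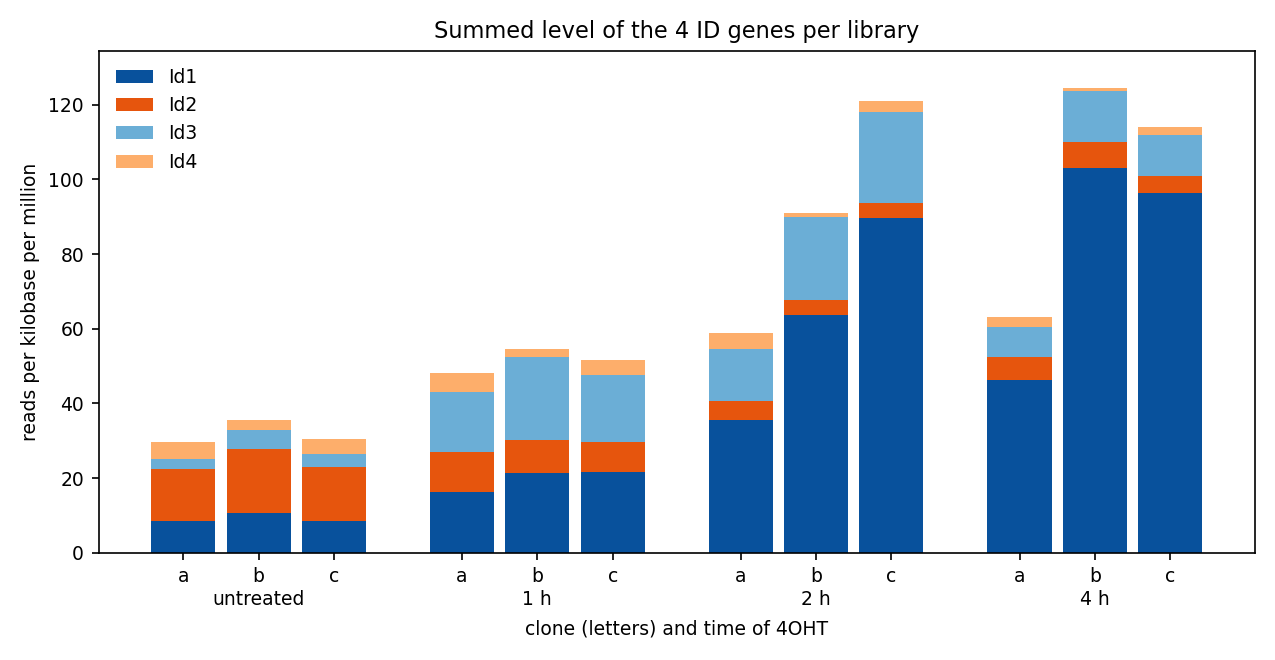
Level of Id1, Id2, Id3 and Id4 in RPKM stacked for each of the 12 libraries, by time of 4OHT and clone (letters). Id2 is the largest block in untreated libraries, and Id1 is the largest at 2 h and 4 h, where clone a reaches 63.2 RPKM in all at 4 h and clones b and c reach 125 and 114 RPKM.

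Among the inhibitors, Smad7 (chr18:75367529-75395935, plus strand) had 88.3, 83.4 and 103 CPM untreated (clones a, b, c), 147, 122 and 170.4 CPM at 1 h, 171, 152 and 194 CPM at 2 h, and 111, 106 and 119 CPM at 4 h. Each clone was highest at 2 h, and no treated group overlapped the untreated one. The log2 change was 0.67 ± 0.13 at 1 h (edgeR adjusted p = 0.150, 0.00019 with clone as a block), 0.91 ± 0.13 at 2 h (adjusted p = 0.0037) and 0.29 ± 0.13 at 4 h (adjusted p = 0.104, 0.0015 with clone as a block). Between 2 h and 4 h Smad7 fell by 0.62 ± 0.13 (edgeR adjusted p = 0.0225), the only one of the 10 genes called between these times, where 4.68% of all genes were called. That call was lost without clone c at 2 h (−0.53, adjusted p = 0.0824), clone b at 4 h (−0.58, adjusted p = 0.075) or clone c at 4 h (−0.67, adjusted p = 0.0672), and in a fit of these 2 groups alone (adjusted p = 0.0827). The fit of these 2 groups alone called 0 of all genes.

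Smad6, the other inhibitory SMAD, had 10.1, 8.36 and 12.04 CPM untreated (clones a, b, c), 10.1, 6.05 and 8.78 CPM at 1 h, 6.74, 1.98 and 5.13 CPM at 2 h, and 9.68, 2.41 and 6.88 CPM at 4 h. Clone b was the lowest at every time, and the 2 h group lay below the untreated one while the 1 h and 4 h groups overlapped it. At 2 h the log2 change was −1.14 ± 0.48 (edgeR adjusted p = 0.116, 0.0044 with clone as a block), and at 4 h it was −0.69 ± 0.47 (adjusted p = 0.279, 0.0215 with the block), with −0.06, −1.76 and −0.80 in clones a, b and c. Bambi, the decoy receptor (chr18:3507923-3516404, plus strand), kept within 11.5 to 16.7 CPM in all 12 libraries, and its log2 changes at 1, 2 and 4 h were 0.07 ± 0.11, −0.13 ± 0.11 and −0.21 ± 0.11 (edgeR adjusted p = 0.874, 0.447 and 0.173, and 0.0618 at 4 h with clone as a block). At 4 h all 3 clones of Bambi were below the lowest untreated library.

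**Figure D3:**
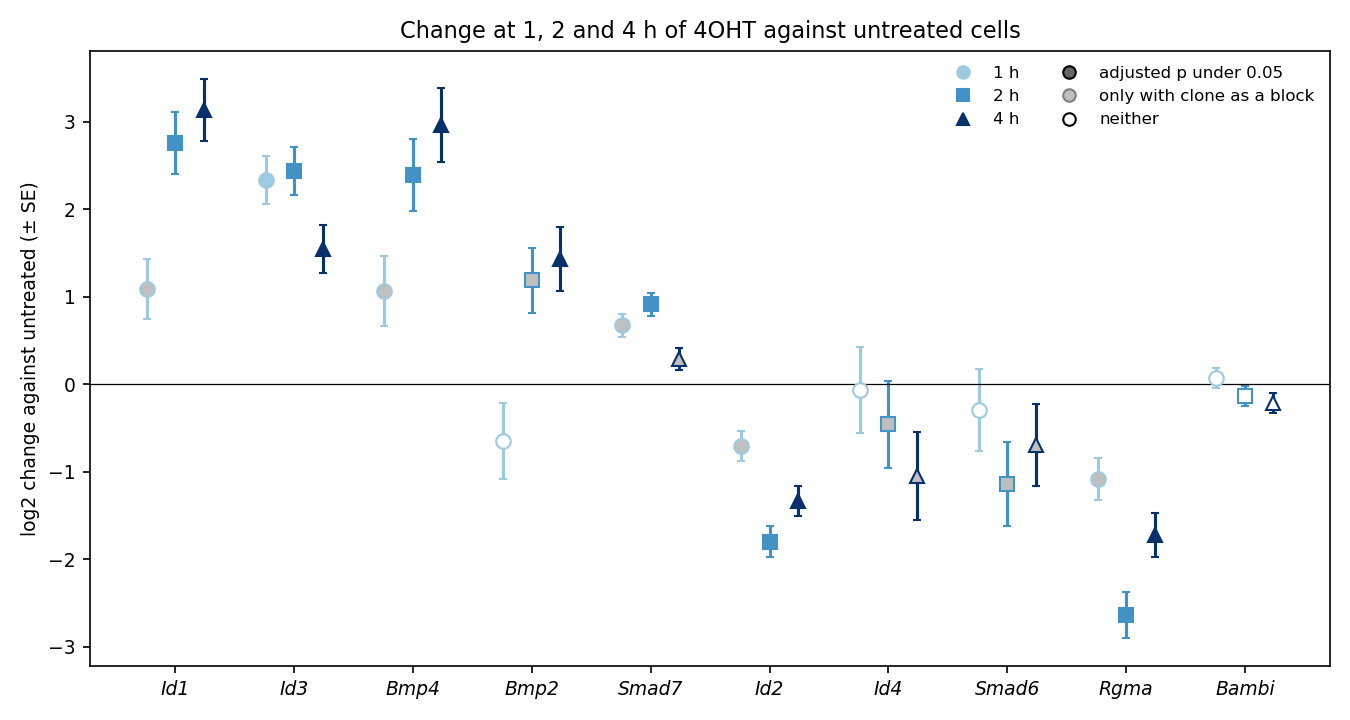
Log2 change ± SE of the 10 genes at 1, 2 and 4 h of 4OHT against untreated cells, from 3 clones per group; filled symbols had an edgeR adjusted p under 0.05, grey ones only with clone as a block, open ones neither. Id1 and Bmp4 reach 3.14 and 2.97 at 4 h, Rgma reaches −2.64 at 2 h, and all 3 values of Bambi lie between −0.21 and 0.07.

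Between 1 h and 2 h no member was called by edgeR, where 0.0634% of all genes were. At an unadjusted p under 0.05 there were 5 of 10, where there were 16.2% of all genes. DESeq2 called 5, where it called 4.04% of all genes, and the fit with clone as a block called 7, where it called 12.6% of all genes. The block's calls were Id1 (1.67 ± 0.34), Bmp2 (1.84 ± 0.40), Bmp4 (1.33 ± 0.40) and Smad7 (0.24 ± 0.13), higher, and Id2 (−1.09 ± 0.18), Smad6 (−0.85 ± 0.48) and Rgma (−1.55 ± 0.26), lower, with changes as fitted without the block. Their edgeR adjusted p without the block ran from 0.0517 for Id2 and Rgma to 0.406 for Smad6. From 2 h to 4 h DESeq2 called 3 of 10, where it called 9.83% of all genes, and the block called 5, where it called 22%. The block's calls were Id2 (0.47 ± 0.18, edgeR adjusted p = 0.155, 0.0338 with the block) and Bmp4 (0.57 ± 0.39, 0.447 and 0.0054), beside Rgma, Id3 and Smad7 above.

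The size of the changes varied between clones. At 1 h Id3, the called gene, changed least in clone b. Of the 6 genes called at 2 h, Id1, Id2 and Rgma changed least in clone a, and Id3, Bmp4 and Smad7 in clone b. Of the 6 called at 4 h, 5 changed least in clone a, namely Id1, Id2, Bmp2, Bmp4 and Rgma, and Id3 in clone b. For Id1 the changes at 4 h were 2.42, 3.25 and 3.47 in clones a, b and c, and for Bmp4 they were 2.67, 2.87 and 3.26. Clone a had the lowest Esr1 level at each time and clone b the highest. Whether the responses follow the level of the construct was not tested. Without clone c at all times, so with 2 clones a group, none of the 10 genes was called at 2 h, when 1 of 14185 genes was, and 3 were at 4 h, namely Id1, Id2 and Bmp4. At 4 h that fit called 643 of the 14185 genes higher and 271 lower. The adjusted p of the 6 genes at 2 h then ran from 0.157 to 0.248, and at 4 h it was 0.0665 for Id3, 0.0524 for Rgma and 0.131 for Bmp2. Without clone b at all times, Id1 at 2 h (adjusted p = 0.0513) and Bmp2 at 4 h (adjusted p = 0.152) missed the threshold. Of all genes that fit called 72 higher and 25 lower at 2 h, and 1156 higher and 763 lower at 4 h. Id3 at 1 h missed it without clone b or clone c at all times (adjusted p = 0.274 and 0.80), and Smad7 between 2 h and 4 h missed it without any one of the 3 clones (adjusted p from 0.106 to 0.314). The fits without clone b or without clone c called 0 of the 14185 genes at 1 h, and 0 between 2 h and 4 h. Without clone a, 713 of all genes were called higher and 466 lower between 2 h and 4 h.

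Per length, the order of the 10 genes in untreated cells was Smad7 (20.3 ± 2.27 RPKM), Id2 (15.1 ± 1.75), Bmp4 (11.1 ± 4.50), Id1 (9.33 ± 1.23), Id4 (3.78 ± 0.81), Id3 (3.73 ± 1.13), Smad6 (3.17 ± 0.57), Bambi (2.90 ± 0.22), Rgma (1.27 ± 0.18) and Bmp2 (0.16 ± 0.03) (SD, n = 3). Neighbours overlapped from Id2 through Bmp4 to Id1, and from Id4 through Id3 and Smad6 to Bambi. At 4 h the order was Bmp4 (86.5 ± 36.0 RPKM), Id1 (81.9 ± 30.96), Smad7 (24.8 ± 1.44), Id3 (10.9 ± 2.72), Id2 (5.99 ± 1.197), Bambi (2.50 ± 0.21), Smad6 (1.97 ± 1.14), Id4 (1.84 ± 0.96), Bmp2 (0.42 ± 0.19) and Rgma (0.39 ± 0.11). Here Bmp4 overlapped Id1, Bambi overlapped Smad6 and Smad6 overlapped Id4, and Bmp2 overlapped Rgma. With the longest transcript as the length, Rgma was 1.97 RPKM in untreated cells, Smad7 and Id2 also overlapped there (21.4 and 18.7 RPKM), and Id3 stood above Id4 (5.23 and 3.78 RPKM), still overlapping it. At 4 h that length put Rgma above Bmp2 (0.60 and 0.42 RPKM), again overlapping.

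Over the 12 libraries, the genes most like each of the 6 members called at 4 h by Pearson's r of log2 CPM, among those with a mean of at least 1 CPM, were Nub1 (0.987) and Wsb2 (0.987) for Id1, Pim3 (0.968) and Fos (0.967) for Id3, and Cdc42ep3 (0.970) and Tbx15 (0.957) for Id2. For Bmp4 they were Arf6 (0.988) and Pdlim7 (0.987), for Bmp2 Rgs20 (0.947) and Dennd4c (0.945), and for Rgma Gramd1b (0.942) and Mfsd9 (0.942). Fos is an immediate-early subunit of the AP-1 transcription factor. These values are descriptions, because the libraries share clones and times and each pair was the best of about 11859 genes.

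The rest of the pathway was read from 9 lists of other ligands, receptors, co-receptors, SMADs, regulators, targets and ID partners, of which 60 of 87 genes were tested. These lists too were chosen with earlier results of these data known, so their counts are descriptions. At 1 h edgeR called 0 of 60, DESeq2 0 and the fit with clone as a block 3, where 0.0775%, 0.916% and 6.99% of all genes were called. At an unadjusted p under 0.05 there were 6 of 60 (10%), against 11.5% of all genes. At 2 h 9 were higher and 1 lower (15% and 1.67%), against 9.56% and 6.64% of all genes. At 4 h 18 were higher and 5 lower (30% and 8.33%), against 18% and 15.1% of all genes. With the block these counts were 17 and 6 at 2 h and 27 and 11 at 4 h. The block called 40.6% of all genes at 2 h and 52% at 4 h, in either direction. The median log2 change of the 60 was 0.12 at 4 h.

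Of the secreted antagonists, which bind BMP ligands outside the cell, 3 of 9 were higher at 4 h, against 18% of all genes. Twsg1 averaged 200.7 ± 92.7 CPM at 4 h, against 50.8 ± 2.67 CPM in untreated cells (1.98 ± 0.30, edgeR adjusted p = 0.0009), and Grem1 averaged 3.55 ± 1.41 CPM, against 1.10 ± 0.19 CPM (1.68 ± 0.32, adjusted p = 0.0028). Nog, which encodes noggin, had 33 counts over the 3 libraries at 4 h, against 9 in untreated cells (edgeR adjusted p = 0.0173). Its call was lost without untreated clone a or without clone b at 4 h (adjusted p = 0.0586 and 0.0856).

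Of the SMAD cofactors and targets, 5 of 10 were higher and none lower at 4 h, against 18% and 15.1% of all genes. Under the block 6 were higher and 1 lower, where 52% of all genes were called in either direction. Msx1, a homeobox target of BMP signalling, averaged 6.93 ± 4.07 CPM at 4 h, against 0.30 ± 0.05 CPM in untreated cells (4.52 ± 0.49, edgeR adjusted p = 0.0002). Zfp423, a zinc finger partner of SMAD1 and SMAD4, averaged 134 ± 25.2 CPM at 4 h, against 38.9 ± 5.35 CPM in untreated cells (1.79 ± 0.14, adjusted p = 4.1e-05). Hivep2 and Hivep1, zinc finger factors, rose by 1.03 ± 0.27 and 1.02 ± 0.27 at 4 h (edgeR adjusted p = 0.0131 and 0.015). The Hivep2 call was lost without untreated clone b or clone c at 4 h and the Hivep1 call without those or clone b at 4 h, with adjusted p from 0.0502 to 0.0645. The fifth was Gata3, chosen for naming after its values were seen, at 1.32 ± 0.45 (edgeR adjusted p = 0.0435) with −0.06, 2.07 and 0.98 in clones a, b and c. For Gata3, fits without single libraries were not run.

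Of the SMAD transducers, Smad1 averaged 15.9 ± 2.37 CPM at 4 h, against 23.7 ± 1.85 CPM in untreated cells (−0.57 ± 0.12, edgeR adjusted p = 0.0047). Smad4 rose by 0.29 ± 0.10 (adjusted p = 0.0372), a call lost without 5 of the 6 libraries compared, that is without any but clone a at 4 h (adjusted p from 0.053 to 0.148). Of the intracellular regulators, 3 of 12 were higher and 2 lower at 4 h, against 18% and 15.1% of all genes. The falls were in Tob1, which restrains BMP-activated SMADs (−0.89 ± 0.20, edgeR adjusted p = 0.0071), and Rnf111, a ubiquitin ligase for inhibitory SMADs (−0.32 ± 0.07, adjusted p = 0.0057). Tgif2 and Tgif1, SMAD corepressors, rose at 2 h by 0.61 ± 0.08 and 0.64 ± 0.12 (edgeR adjusted p = 0.0031 and 0.0089).

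Of the other ligands, 2 of 7 were higher and 1 lower at 4 h, against 18% and 15.1% of all genes. Bmp8a averaged 8.66 ± 1.85 CPM at 4 h, against 4.92 ± 0.64 CPM in untreated cells (0.82 ± 0.21, edgeR adjusted p = 0.0114). Bmp6 rose by 0.92 ± 0.31 and Gdf3 fell by 0.18 ± 0.06 (edgeR adjusted p = 0.04 and 0.0277). Both calls were lost without untreated clone b, untreated clone c or clone b at 4 h, the Bmp6 call also without untreated clone a and the Gdf3 call also without clone c at 4 h, with adjusted p from 0.0536 to 0.216. Of the receptors and co-receptors, Acvrl1 was called higher at 4 h (0.91 ± 0.30, adjusted p = 0.0397), and not without untreated clone a or b or without clone a or c at 4 h (adjusted p from 0.063 to 0.156). Neo1, a receptor of repulsive guidance molecules such as RGMA, rose by 0.52 ± 0.13 (edgeR adjusted p = 0.0116). Acvr2a was called higher at 2 h and not at 4 h, with 41.8 ± 4.77 CPM at 2 h, against 27.5 ± 2.18 CPM in untreated cells. Its call was lost without 5 of the 6 libraries compared (edgeR adjusted p from 0.0571 to 0.116).

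Of the proteins that meet the ID family, Tcf3, an E protein, averaged 135 ± 7.09 CPM at 4 h, against 89.4 ± 16.2 CPM in untreated cells (0.60 ± 0.13, edgeR adjusted p = 0.0061), and the other 2 E protein genes did not pass the test. Of the bHLH factors, Twist1, a mesodermal factor that pairs with E proteins, averaged 12.6 ± 5.47 CPM at 4 h, against 0.99 ± 0.24 CPM in untreated cells (3.67 ± 0.43, edgeR adjusted p = 0.0003). Hes1, a repressor known as a Notch target, averaged 27.8 ± 6.27 CPM at 4 h, against 41.7 ± 2.46 CPM in untreated cells (−0.58 ± 0.15, adjusted p = 0.0108). Ascl2 was called lower at 2 h and not at 4 h, with 23 counts over the 3 libraries at 2 h, against 97 in untreated cells. That call was lost without 5 of the 6 libraries compared (edgeR adjusted p from 0.0551 to 0.113). Only 4 of 13 bHLH genes had enough reads to be tested. Of the 21 pathway genes that the naming rule took and that were called at 4 h, Gata3 not among them, the calls of Twist1, Msx1 and Zfp423 held without any single library or clone, and the other 18 were lost without clone c at all times (adjusted p from 0.0552 to 0.326). At 4 h the fit without clone c called 643 of all genes higher and 271 lower. Exons of Acvr2a, Acvrl1, Bmp6, Gata3, Hivep2 and Tgif2 overlap genes on the opposite strand, so their counts are uncertain.

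**Figure D4:**
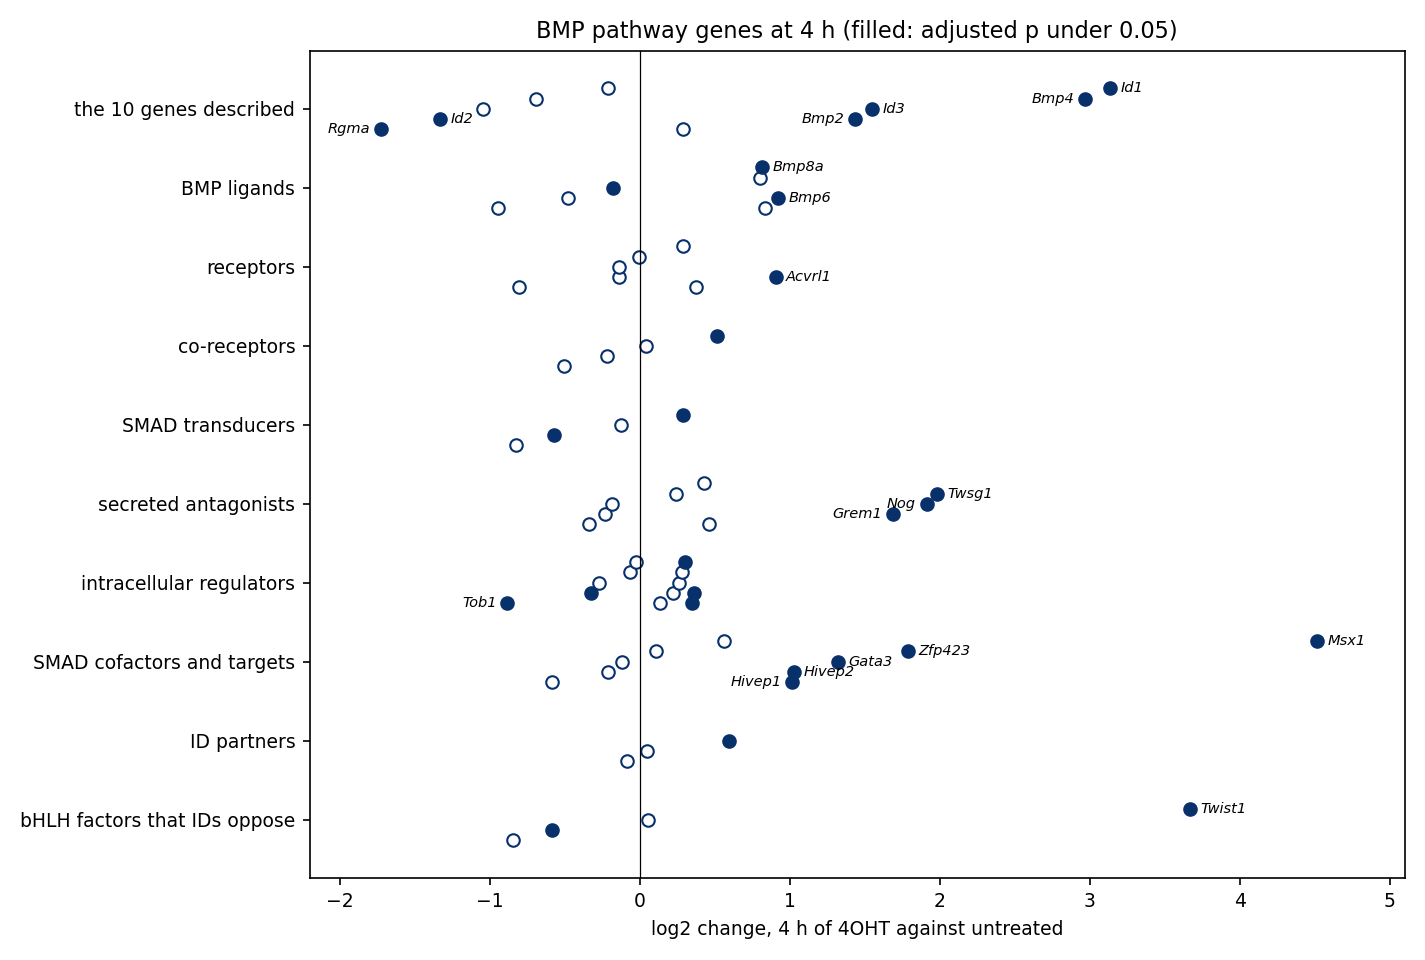
Log2 change at 4 h of 4OHT against untreated cells for the 10 genes and for the 60 tested genes of 9 pathway lists, 1 symbol per gene, filled where the edgeR adjusted p was under 0.05; vertical offsets only separate symbols. Msx1 (4.52) and Twist1 (3.67) lie farther right than Id1 (3.14), and Rgma (−1.72) lies farthest left. Over the 3 untreated libraries Msx1 and Twist1 had only 26 and 85 counts, against 926 for Id1.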

How the data were processed

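RNA was measured in 12 libraries of 3 clones at 4 times. The deposited file is 1 table of raw counts, with a row per symbol and a column per library. The build mm10 and the tools STAR, featureCounts and DESeq are named, with no roles, in the submitters' processing notes, while their versions, the annotation, the strand setting and what was done with repeated reads were not given in the sources used here. Per the labels' protocols, libraries were made from total RNA without ribosomal RNA with the NEB Next Ultra 2 kit. Groups came from the titles, and columns were matched by time and clone letter.

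Genes were filtered with edgeR's filterByExpr (minimum count 10, minimum total 15), scaled by TMM and tested with edgeR 4.0.16 (R 4.3.3), 1 term per group over all libraries, 2-sided, with Benjamini-Hochberg adjustment over 14185 genes and a threshold of 0.05. The SE is approximate, taken from the log2 change and its F value. DESeq2 1.42.0 was an alternative. Both tools were tested on simulated data with less spread than these data and no differences between clones, which is an easier setting. No 2 libraries of a group were copies of each other (chi-square of their counts divided by its degrees of freedom, 18.5 to 103 over 12 pairs). The clone letter pairs libraries across times: deviations from group means had r from 0.184 to 0.684 in 18 same-clone pairs and from −0.568 to −0.024 in 36 others. Of the symbols, 25532 matched 1 gene of GENCODE M21. Log2 CPM used a prior count of 2. The 10 genes and all lists were chosen with earlier results of these data known. Named from each list were at most 4 genes past the threshold at any time against untreated cells, by smallest p at 4 h, except that Gata3 was named after its values were seen. Marker lists and most similar genes followed fixed rules. No library or column was left out.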

Additional observations from a re-analysis of the deposited data

Results flagged for a closer look

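Bmp2 lay on opposite sides of its untreated level at different times. Its log2 change against untreated cells was −0.65 at 1 h, with all 3 clones lower, and 1.19 at 2 h and 1.43 at 4 h, with all 3 clones higher at both. The difference between 2 h and 1 h itself was 1.84 ± 0.40 (edgeR adjusted p = 0.0916, 0.0033 with clone as a block). The lower value at 1 h did not pass the test in either fit (adjusted p = 0.626, 0.197 with the block). Summed over 3 libraries, the untreated group had 48 counts, the 1 h group 28, the 2 h group 107 and the 4 h group 123. Groups of 3 libraries were too small for the search for single outlying samples.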

How the results depend on the processing

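Of 745 values of the 10 genes under the alternatives, 663 kept direction and side of the threshold, 27 lost the call, 49 gained it and 6 changed sign. Most of the 745 belong to changes not called in the main fit, which had no call to lose. These totals therefore do not measure how well the calls held. With the replicate block for clone the number of genes called was 6 at 1 h, 7 between 1 h and 2 h and 5 between 2 h and 4 h, in place of 1, 0 and 1. It changed no call to the opposite direction. DESeq2 gave 4, 5 and 3 for these comparisons. Without a filter on low counts 2 were called between 1 h and 2 h, where 37 of 19425 genes were higher and 6 lower. Fits of only the 2 groups compared gave 2 at 1 h, where 23 of 14185 genes were higher and 1 lower. Between 2 h and 4 h such a fit gave 0, where 0 of all genes were called. In the fit of only the 4 h and untreated groups, the 4 h calls of Gdf3, Bmp6, Acvrl1, Neo1, Smad4 and Tgif1 were also lost. Leaving out a library or a clone gave 0 to 1 at 1 h, 0 to 7 at 2 h, 3 to 6 at 4 h, 0 to 4 between 1 h and 2 h, and 0 to 2 between 2 h and 4 h. Of all genes these fits called 0 to 26, 1 to 1808, 643 to 2880, 0 to 202 and 0 to 879 higher. In the same order they called 0, 0 to 1448, 271 to 2614, 0 to 99 and 0 to 565 lower. The lowest counts at 2 h and 4 h, 0 and 3, came without clone c. The changes of sign were all in uncalled values when libraries were left out: Id4 at 1 h ranged from −0.38 to 0.21 and was 0.09 without untreated clone a, 0.21 without clone b at 1 h and 0.07 without clone b, against −0.06 with all libraries. Id3 between 1 h and 2 h ranged from −0.086 to 0.31, with −0.061 without clone c at 2 h and the lowest without clone c, against 0.10, and Bambi at 1 h ranged from −0.011, without clone a, to 0.14, against 0.07. Scaling by RLE size factors left all 5 counts as they were. A stricter filter, a mean of at least 1 CPM, left Bmp2 out. The cause of these differences was not tested. Depth limits Bmp2 most, with 7 to 56 counts per library.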
